A study of Mus musculus with 5 samples.

Results

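DRIP-only peaks near RNA polymerase II (RNAPII) are regions where R-loops were called by DRIP-seq, where no RNAPII or NELF peak was called, and where an RNAPII peak nevertheless lay at most 10 kb away. They were chosen by position alone: a DRIP peak with no base in common with a peak of the other 3 lists, and a gap of at most 10000 bp, edge to edge, to the nearest RNAPII peak. This rule took 2035 of the 10031 DRIP peaks, or 20.3% (95% Wilson interval 19.5 to 21.1%), and 32456 peaks stood in the 4 lists together. All lists come from virgin mice of 6 to 8 weeks, of a strain labelled mixed and with no genotype or treatment named. Primary mammary epithelial cells were isolated from dissected thoracic and inguinal glands, so luminal and basal cells, and any other cells that passed the digestion, were profiled together, and the lists name no gene whose markers could be checked. RNAPII and DRIP each had 1 list for 2 libraries, and NELF-A and NELF-B had 1 list from 1 library each, precipitated with antibodies made in house. The NELF libraries were made from 0.2 ng of precipitated DNA with 18 PCR cycles, and RNAPII from 1 ng with 15. The part of this in where NELF peaks were called or missing was not tested. No p-value was computed, because no target had replicate lists; the intervals cover counting error alone, and neighbouring peaks are not independent. DRIP-seq after RNase H was not analysed here, so whether these peaks depend on RNA-DNA hybrids was not tested.

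An R-loop is a hybrid of nascent RNA with its template DNA strand, which leaves the other strand single. R-loops form where RNAPII transcribes, are known at gene starts and near gene ends, and can stay on the DNA after the polymerase has moved on. NELF, the negative elongation factor, holds RNAPII in a paused state shortly after initiation, so its peaks tend to mark the start of a transcribed unit. In DRIP-seq the genomic DNA is digested and hybrids are pulled down with an antibody. A DRIP peak therefore reports a DNA fragment that holds a hybrid, not its exact borders.

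The DRIP-only peaks crowded towards RNAPII within the 10 kb that define them. The median gap to RNAPII was 2250 bp, with quartiles of 500 and 5250 bp, and 177 of the peaks touched an RNAPII peak with no base between. Under 1 kb from RNAPII lay 625 peaks (30.7%), and 301 lay at 1 to 2 kb, 225 at 2 to 3 kb, 333 at 3 to 5 kb, 299 at 5 to 7.5 kb and 252 at 7.5 to 10 kb. These numbers describe the peaks and were not tested, since the gap to RNAPII chose them.

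The fall with distance went on beyond the limit of 10 kb. It was measured as the number of DRIP-only peaks per Mb of ground, where ground is all sequence outside RNAPII and NELF peaks between the outermost peaks of each chromosome and each DRIP peak is placed by its midpoint. At 0.5 to 1 kb from an RNAPII edge there were 46.2 DRIP-only peaks per Mb (95% exact Poisson interval 41.1 to 51.8). There were 15.4 per Mb (13.8 to 17.1) at 3 to 5 kb and 9.79 (8.62 to 11.1) at 7.5 to 10 kb. Just outside the limit, at 10 to 15 kb, there were 8.63 per Mb (7.82 to 9.50), so the density had no step at 10 kb. It was 3.39 (3.17 to 3.63) at 50 to 100 kb and 1.498 (1.44 to 1.55) beyond 100 kb. The first 0.5 kb held 26.3 per Mb, a lower value that the rule brings with it, because a peak centred that close mostly overlaps RNAPII. Ground within 10 kb of RNAPII made up 4.39% of the total and held DRIP-only peaks at 11.9 times the density of ground over 100 kb away. Assembly gaps and sequence that reads cannot be placed on were not removed from the ground, and their part in this ratio was not tested.

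**Figure D1:**
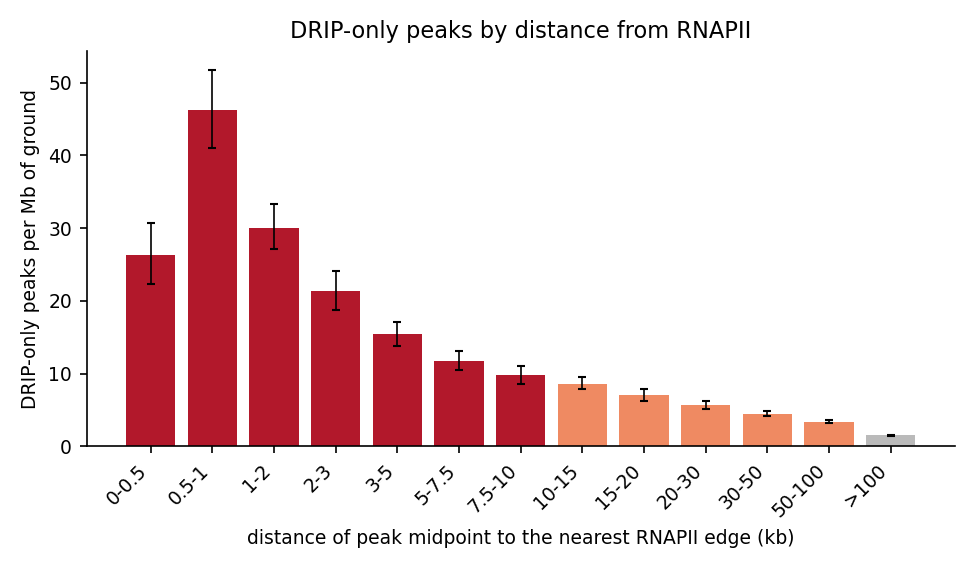
DRIP-only peaks per Mb of ground (y axis) by distance of the peak midpoint from the nearest RNAPII edge (x axis, kb), with exact Poisson 95% intervals; red bars lie within 10 kb, orange bars at 10 to 100 kb and the grey bar beyond. From 46.2 per Mb at 0.5 to 1 kb the density falls to 9.79 at 7.5 to 10 kb and continues without a step to 8.63 at 10 to 15 kb.

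Peaks just inside and just outside the limit overlapped in width and score. The 37 peaks with gaps of 9750 or 10000 bp had a median width of 500 bp and scores of 38 to 478, with a median of 48. The 53 DRIP-only peaks with gaps of 10250 or 10500 bp had a median width of 750 bp and scores of 38 to 486, with a median of 57. The score is the authors' own whole number per peak, without a stated unit, and was compared only within the DRIP list.

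Most of the near DRIP-only peaks were short and close to the floor of the list, yet wider than DRIP-only peaks farther away. Of the 2035, 964 (47.4%) were 500 bp wide, the shortest width among them, and the widest reached 7500 bp. The median width was 750 bp, with quartiles of 500 and 1000 bp, against a median of 500 bp for the 2636 DRIP-only peaks at 10 to 100 kb and for the 2798 at over 100 kb. DRIP peaks that overlapped RNAPII, 2315 in number, had a median of 1250 bp with quartiles of 750 and 2250 bp. A width of 1500 bp or more was reached by 16.0% of the near peaks (14.4 to 17.6%), 9.37% (8.32 to 10.5%) of those at 10 to 100 kb and 8.11% (7.16 to 9.18%) of those beyond. On RNAPII it was 43.3% (41.3 to 45.3%). The near peaks thus stood between DRIP on RNAPII and distant DRIP at this width. At 3000 bp or more the shares were still apart. They were 4.08% (3.30 to 5.03%) for near peaks and 2.54% (2.01 to 3.22%) at 10 to 100 kb. Among the few peaks of 5000 bp or more, the difference between near peaks and those at 10 to 100 kb was no longer seen. At 5000 bp or more the shares were 0.688% (14 peaks) and 0.683% (18 peaks), with 0.286% (8 peaks) beyond and 5.70% on RNAPII. At 7500 bp or more 2 near peaks (0.0983%) and 7 at 10 to 100 kb (0.266%) were left. Width bears on the rule, since a wider peak more easily meets another target and is then left out.

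Scores followed width. The near DRIP-only peaks had scores from 38, the lowest in the DRIP list, to 2377, with a median of 57 and quartiles of 40 and 86. The median was 43 at 10 to 100 kb, 44 beyond 100 kb and 103 on RNAPII. Divided by width the differences between DRIP-only classes nearly closed. The median score per 250 bp, the step on which the borders of DRIP peaks lie with 1 exception, was 20 for the near peaks, 20 at 10 to 100 kb, 20.5 beyond and 21.5 on RNAPII. Of the near peaks, 1947 (95.7%) had under 25 per 250 bp, where the lowest value in the list is 18.8, and 17 exceeded 30. They varied in length more than in score per base. Within the 10 kb, peaks of 1500 bp or more made up 16.0% (13.3 to 19.1%) of those under 1 kb from RNAPII, 17.7% (14.0 to 22.2%) of those at 3 to 5 kb and 10.7% (7.47 to 15.1%) of those at 7.5 to 10 kb.

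**Figure D2:**
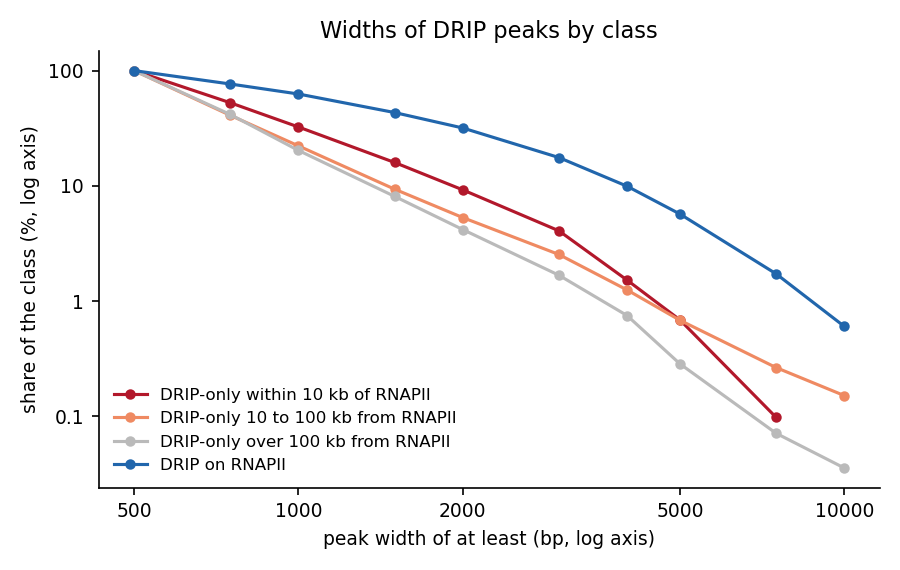
Share of DRIP peaks (y axis, %, log axis) at least as wide as the value on the x axis (bp, log axis), for DRIP-only peaks within 10 kb of RNAPII, at 10 to 100 kb and beyond, and for DRIP peaks on RNAPII. At 1500 bp the near peaks, at 16.0%, lie between the distant ones, at 9.37% and 8.11%, and those on RNAPII, at 43.3%; at 5000 bp they meet the line for 10 to 100 kb.

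Near DRIP-only peaks usually had other R-loop peaks beside them. Another DRIP peak lay within 3 kb of 1332 of them, or 65.5% (63.4 to 67.5%), against 48.0% of all DRIP peaks, 40.8% (38.9 to 42.7%) of DRIP-only peaks at 10 to 100 kb and 21.4% (19.96 to 23.0%) beyond. The odds ratio against the class at 10 to 100 kb was 2.75 (95% Woolf interval 2.44 to 3.10). DRIP peaks on RNAPII had such a neighbour more often, at 72.1% (70.3 to 73.9%), with an odds ratio of 0.732 (0.643 to 0.832) for the near peaks against them. DRIP-only peaks are denser near RNAPII altogether, as given above, and the part of that density in these shares was not tested.

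Runs were formed of DRIP peaks with at most 3 kb between them. The near DRIP-only peaks fell into 1395 runs. In such runs 607 peaks (29.8%) were joined to a DRIP peak that lay on RNAPII, 725 (35.6%) were joined only to DRIP peaks off RNAPII, and 703 (34.5%) stood alone. Runs of several peaks numbered 692, had a median span of 4000 bp and held up to 9 near DRIP-only peaks. The peaks alone in their run were less often wide, while the intervals of both kinds of joined peaks overlapped. A width of 1500 bp or more was found for 9.67% (7.70 to 12.1%) of the peaks alone in their run, 17.9% (15.3 to 20.9%) of those in runs off RNAPII and 20.9% (17.9 to 24.3%) of those in runs that reached RNAPII. With no base between, 282 of the peaks (13.9%) touched another DRIP peak, and 64 of these touched 1 that overlapped RNAPII.

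**Figure D3:**
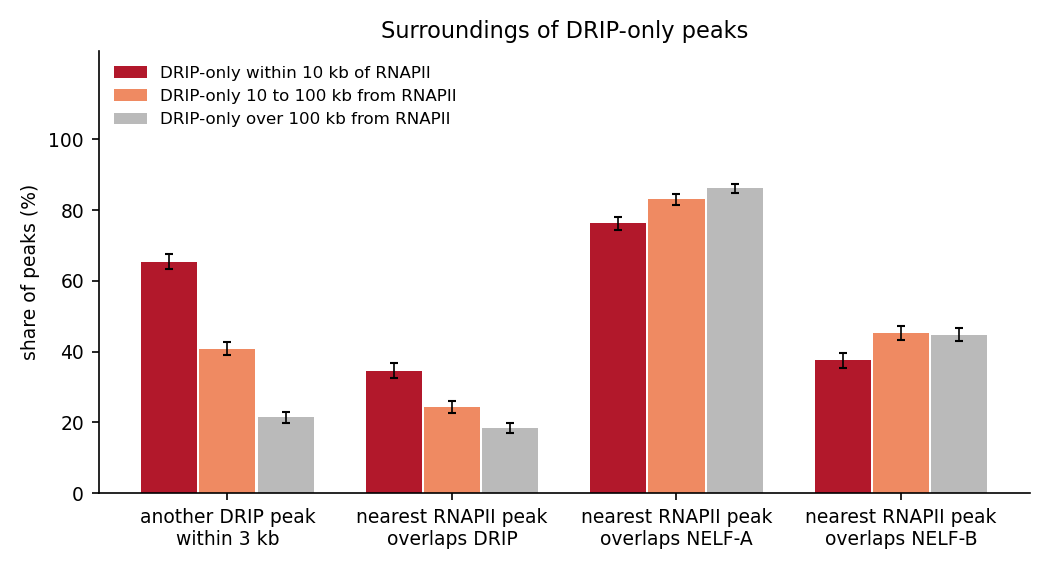
Share of DRIP-only peaks (y axis, %) with each feature named on the x axis, for peaks within 10 kb of RNAPII (red), at 10 to 100 kb (orange) and beyond (grey), with 95% Wilson intervals. The near peaks stand highest for another DRIP peak within 3 kb (65.5%) and for a nearest RNAPII peak that overlaps DRIP (34.5%), and lowest for a nearest RNAPII peak with NELF-A (76.3%) or NELF-B (37.5%).

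The RNAPII peaks beside them carried R-loop signal more often than RNAPII peaks at large. The nearest RNAPII peak overlapped DRIP for 703 of the near DRIP-only peaks, or 34.5% (32.5 to 36.6%), where 22.2% of all RNAPII peaks overlapped DRIP. The share was 24.2% (22.6 to 25.9%) for DRIP-only peaks at 10 to 100 kb, an odds ratio of 1.65 (1.45 to 1.87) for near against these. For the remaining 1332 near peaks the closest RNAPII peak held no DRIP peak. Near peaks beside an RNAPII peak with DRIP were wider: 19.9% (17.1 to 23.0%) of them reached 1500 bp, against 13.9% (12.1 to 15.9%) beside an RNAPII peak without DRIP.

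For NELF the relation went the other way with distance. NELF-A lay on the nearest RNAPII peak of 1553 near DRIP-only peaks, or 76.3% (74.4 to 78.1%), a share near the 72.3% of all RNAPII peaks. It was higher, 83.0% (81.5 to 84.4%), for DRIP-only peaks at 10 to 100 kb, and the odds ratio of near against these was 0.660 (0.571 to 0.762). NELF-B lay on the nearest RNAPII peak of 37.5% (35.5 to 39.7%) of near peaks and of 38.2% of all RNAPII peaks, against 45.3% (43.4 to 47.2%) for those at 10 to 100 kb. RNAPII peaks with NELF-A were more often apart from other RNAPII: 72.6% stood over 10 kb from any other, against 22.0% without NELF-A. A peak that stands apart is the nearest one to more ground, and the part of this in the difference was not tested. NELF-A was closer than RNAPII to 407 near DRIP-only peaks (20%), at an equal gap for 579 and farther for 1049 (51.5%). The median gap to NELF-A was 3500 bp. Width did not differ by NELF-A beyond its intervals, with 15.8% (14.0 to 17.7%) of peaks beside RNAPII with NELF-A and 16.6% (13.5 to 20.2%) beside RNAPII without it at 1500 bp or more. Few had a long RNAPII peak as their nearest: 68 near peaks (3.34%, 2.64 to 4.21%) had a nearest RNAPII peak of 5 kb or more, and 5.30% of all RNAPII peaks were that long.

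Counted from the polymerase, 1873 of 7718 RNAPII peaks (24.3%, 23.3 to 25.2%) had at least 1 DRIP-only peak within 10 kb. Such a peak was found beside 37.5% (35.2 to 39.8%) of RNAPII peaks that overlapped DRIP and beside 20.5% (19.5 to 21.5%) of the others, an odds ratio of 2.33 (2.07 to 2.61). With touching peaks joined within each list it was 2.22 (1.97 to 2.50). The ratio was larger beside narrow RNAPII peaks. At 500 to 750 bp the shares were 48.9% with DRIP and 19.3% without, an odds ratio of 3.99 (3.02 to 5.29). At 1750 to 4750 bp they were 33.9% and 22.5%, an odds ratio of 1.77 (1.43 to 2.21), and at 5000 bp or more 20.8% and 11.9%, with 1.95 (1.00 to 3.77). In RNAPII peaks with no other RNAPII peak within 10 kb the odds ratio was 2.996 (2.53 to 3.55), and with another RNAPII peak within 10 kb it was 1.65 (1.40 to 1.94). These are among 30 odds ratios computed over RNAPII peaks, for DRIP, NELF-A and NELF-B.

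The relation to NELF-A depended on how the peaks were counted. A DRIP-only peak lay within 10 kb of 22.5% (21.5 to 23.6%) of RNAPII peaks with NELF-A and of 28.8% (26.9 to 30.8%) where NELF-A was missing, and the odds ratio was 0.719 (0.642 to 0.805). With each DRIP-only peak counted only at its nearest RNAPII peak, the odds ratio turned to 1.31 (1.14 to 1.51). Among RNAPII peaks with no other RNAPII peak within 10 kb, with any DRIP-only peak within 10 kb counted, the shares were 20.3% (19.1 to 21.6%) and 23.7% (20.04 to 27.7%), with an odds ratio of 0.822 (0.655 to 1.03), whose interval spans 1. With another RNAPII peak within 10 kb they were 28.45% (26.2 to 30.8%) and 30.3% (28.1 to 32.5%), and the odds ratio of 0.917 (0.787 to 1.07) also spans 1. Pooled at equal distance class to RNAPII, however, the odds ratio was 0.820 (0.718 to 0.936), an interval below 1. By width, over all RNAPII peaks, the odds ratio ran from 0.485 (0.406 to 0.580) at 500 to 750 bp to 1.09 (0.850 to 1.40) at 1750 to 4750 bp and 1.17 (0.647 to 2.12) at 5000 bp or more.

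**Figure D4:**
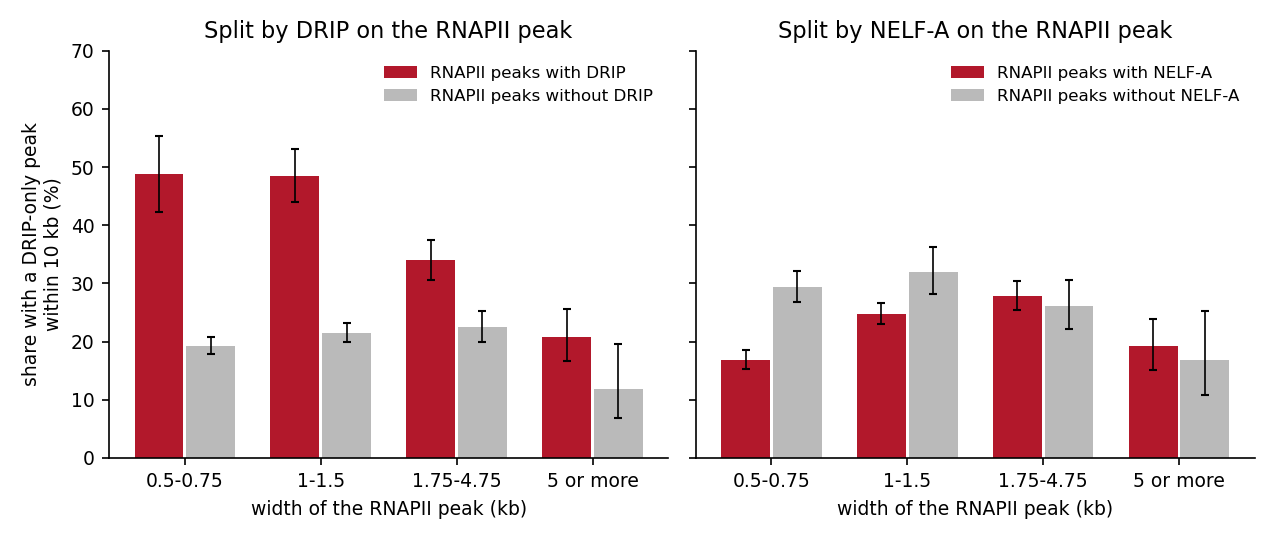
Share of RNAPII peaks with a DRIP-only peak within 10 kb (y axis, %) by width of the RNAPII peak (x axis, kb), split by overlap with DRIP (left) and with NELF-A (right), with 95% Wilson intervals. Peaks with DRIP stand above those without in each width class, from 48.9% against 19.3% in the narrowest to 20.8% against 11.9% in the widest, where the intervals overlap; for NELF-A the order changes with width.

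The near DRIP-only peaks were spread over many RNAPII sites. They had 1337 different nearest RNAPII peaks, of which 894 had 1 of them, 279 had 2 and 164 had 3 or more, with at most 7. A minority, 322 peaks (15.8%, 14.3 to 17.5%), had RNAPII within 10 kb on both sides. These lay in 233 gaps of the RNAPII list with a median length of 7250 bp, and they covered a median of 17.6% of the gap. Both flanking RNAPII peaks carried NELF-A at 84 of these gaps, 1 flank at 82 (35.2%) and neither at 67. Among all 1728 RNAPII gaps of 750 to 18750 bp, the range of these gaps, 31.0% had NELF-A on 1 flank, so the flanks of gaps with a DRIP-only peak were close to those of gaps at large.

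Where an RNAPII domain could be given a direction, the DRIP-only peaks lay mostly beyond its far end. Touching RNAPII peaks were joined to domains, and a domain of 1000 bp or more was oriented by its overlapping NELF-A peak of the highest score. The centre of that peak had to fall into the outer 25% next to either end, or beyond that end. This gave 1068 oriented domains, and 306 near DRIP-only peaks had 1 of them as their nearest. Of these, 200 lay on the far side and 106 on the side of the NELF-A end, a far-side share of 65.4% (59.9 to 70.5%). Counted by domain, 119 had such peaks on the far side only, 66 on the NELF-A side only and 12 on both sides. Orientation by NELF-B gave 65.3% (57.9 to 72.0%) and is not a separate check, since 3631 of the 3925 NELF-B peaks overlapped NELF-A.

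The lean to the far side was strongest at domains that stood alone, where it grew with the gap within 10 kb. At the 517 oriented domains with no other RNAPII domain within 20 kb, 129 of 173 DRIP-only peaks lay on the far side, or 74.6% (67.6 to 80.5%). At the other oriented domains it was 71 of 133, or 53.4% (44.9 to 61.6%), and the odds ratio between both groups was 2.56 (1.58 to 4.15). At the lone domains the peaks under 1 kb away were nearly even, with 22 on the far side and 19 on the NELF-A side. At 1 to 3 kb the numbers were 37 and 13, and at 3 to 10 kb they were 70 and 12, a far-side share of 85.4% (76.1 to 91.4%). The odds ratio of 3 to 10 kb against under 1 kb was 5.04 (2.12 to 11.99). Farther out the share at these lone domains was lower than at 3 to 10 kb. It was 65.1% (57.2 to 72.3%) at 10 to 30 kb, an interval that overlaps that of the 74.6% within 10 kb. At 30 to 100 kb it was 66.5% (59.1 to 73.1%). Orientation of lone domains by NELF-B did not show this fall at 10 to 30 kb. There the share was 69.1% (59.9 to 77.0%) within 10 kb and 77.4% (64.5 to 86.5%) at 3 to 10 kb. It was 76.2% (66.1 to 84.0%) at 10 to 30 kb and 63.0% (54.1 to 71.2%) at 30 to 100 kb. Over all domains oriented by NELF-A the far-side share was 50.6% (40.4 to 60.7%) under 1 kb and 72.4% (64.3 to 79.3%) at 3 to 10 kb. At 10 to 30 kb it was 63.2% (56.1 to 69.9%), near the 65.4% within 10 kb, and at 30 to 100 kb 55.9% (49.4 to 62.3%). By domain, 72 lone domains had peaks within 10 kb on the far side only, 29 on the NELF-A side only and 6 on both.

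Long domains among neighbours went against this direction. At oriented domains of 5 kb or more 17 of 42 DRIP-only peaks, or 40.5% (27.0 to 55.5%), lay on the far side. Of these domains the lone ones had 9 of 11 peaks on the far side, and those with other RNAPII within 20 kb had 8 of 31, or 25.8% (13.7 to 43.2%). Domains under 5 kb with other RNAPII within 20 kb had 61.8% (52.1 to 70.6%). These are small numbers.

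NELF peaks took up more ground on the NELF-A side, which the rule then bars to DRIP-only peaks. At the lone domains NELF covered 23.1% of the first 1 kb on the NELF-A side and 1.06% on the far side, and over 10 kb it covered 2.66% and 0.426%. With DRIP peaks on NELF outside RNAPII counted too, a setting chosen after the data were seen, the far-side share at lone domains was 67.5% (60.7 to 73.7%). The part of the NELF-covered ground in the lean was not tested. The direction of transcription itself was not known from the lists.

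**Figure D5:**
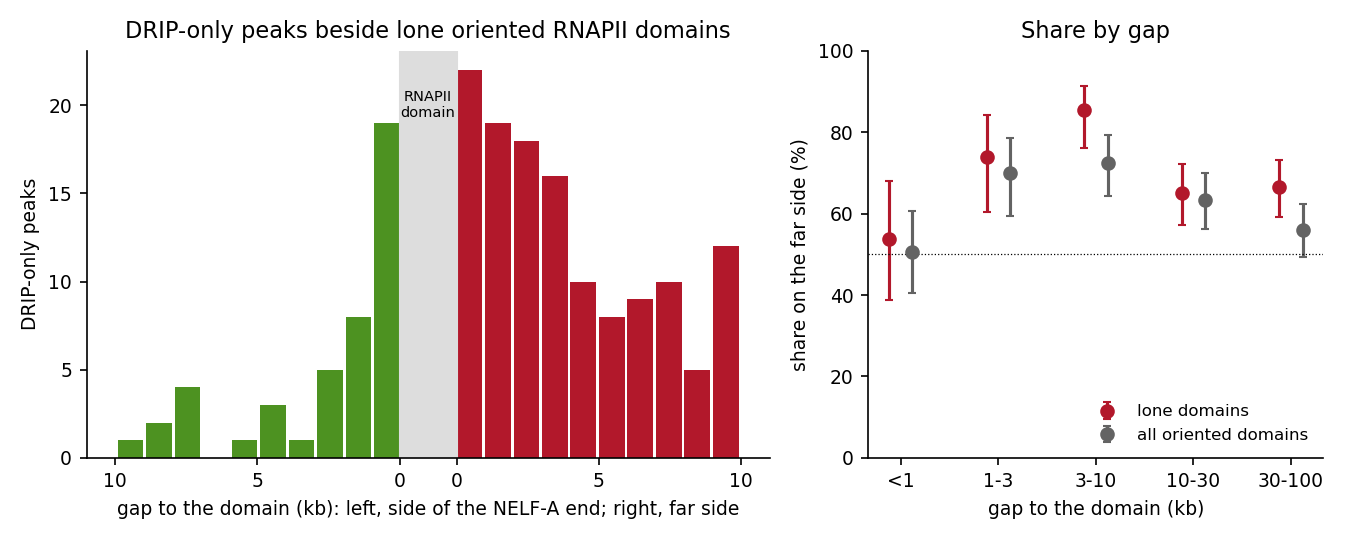
Left, number of DRIP-only peaks (y axis) by gap to their nearest lone oriented RNAPII domain (x axis, kb), on the side of its NELF-A end (green) and on the far side (red). Right, share on the far side (y axis, %) by gap (x axis, kb) with 95% Wilson intervals for lone and for all oriented domains; the dotted line marks 50%. At lone domains the numbers are 19 and 22 under 1 kb and 12 and 70 at 3 to 10 kb.

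Several of the individual DRIP-only peaks stood out by score, and positions are in mm9. The highest score, 2377, belonged to a 6000 bp peak on chromosome 4 from 118218501 to 118224500, rank 15 in the whole DRIP list. Its score per 250 bp was 99.0, the highest among the near DRIP-only peaks, and the closest RNAPII peak, 2250 bp away, was 500 bp wide with NELF-A and without DRIP. The next scored 1039 over 7500 bp on chromosome 3, from 87949251 to 87956750. This peak began 250 bp after a 7000 bp RNAPII peak, from 87942001 to 87949000, that overlapped 3 NELF-A, 2 NELF-B and 1 DRIP peak. A peak as wide on chromosome 10 from 77863251 to 77870750 scored 962 and lay 4500 bp from a 750 bp RNAPII peak with NELF-A and NELF-B and without DRIP.

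The fourth by score, 955, was a 3000 bp peak on chromosome 3 from 51138001 to 51141000, with 79.6 per 250 bp, between a pair of RNAPII peaks, the nearer of which lacked NELF. The fifth, on chromosome 18, scored 798 over 6000 bp and lay 1500 bp from RNAPII with both NELF subunits. The third widest measured 6750 bp on chromosome 5, from 115999501 to 116006250, scored 686 and lay 2750 bp from an RNAPII peak with NELF-A, NELF-B and DRIP.

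Among the rest, 3 peaks led by score per base. They lay on chromosome 10 from 84567501 to 84568750 with 92.2 per 250 bp, on chromosome 17 from 15631751 to 15633000 with 70.8, and on the X chromosome from 35807251 to 35809000 with 37.6. The first and second of these lay 1500 and 2000 bp from RNAPII peaks of 1000 and 750 bp that carried NELF-A, no NELF-B and no DRIP. The third touched a 1000 bp RNAPII peak with NELF-A and DRIP and without NELF-B, and another DRIP peak lay 250 bp from it. The height of all 3 sets them apart from the 95.7% of near peaks under 25 per 250 bp. Whether reads of repeated sequence contribute to these 3 peaks was not tested.

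The 3 RNAPII domains with the most DRIP-only peaks within 10 kb were 500, 750 and 3000 bp wide, lacked NELF and had them on both sides. Each of the top 3 had 7. On chromosome 1, a 750 bp RNAPII domain from 93342501 to 93343250 had 4 to its left and 3 to its right, between 93330001 and 93351250. Their widths ran from 500 to 3500 bp and their scores from 38 to 369. On chromosome 17, a 3000 bp domain from 35283001 to 35286000 had 3 to the left and 4 to the right, the last of them 4750 bp wide with a score of 508, from 35293751 to 35298500. On chromosome 8, a 500 bp domain from 87233001 to 87233500 had 4 and 3, each of 1500 bp or less and with scores of 38 to 136. The domains on chromosomes 1 and 17 overlapped DRIP themselves, that on chromosome 8 did not, and none of the 3 overlapped NELF-A or NELF-B.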

How the data were processed

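Peak lists of 4 of the 5 samples were analysed. BWA and the build mm9 are named in the submitters' processing notes. The peak caller, its threshold, any input control and the way 2 libraries were joined into each of the RNAPII and DRIP lists are steps not given in the sources used here. The authors' deposited score is 1 whole number per peak without a stated unit. The authors' other columns give the first and last base, on a 250 bp grid except for the end of 1 DRIP peak. Sequencing depth is unknown from these files.

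Overlap meant 1 bp or more, and gaps were counted edge to edge. Peaks were kept as listed, except that touching RNAPII peaks were joined to domains for orientation. Shares carry 95% Wilson intervals, densities exact Poisson intervals and odds ratios Woolf intervals (Mantel-Haenszel where pooled), computed with Python 3.11.15, scipy 1.17.1 and pandas 2.3.3. The overlap and side counts were tested on simulated data. No p-values were computed. The peaks and the comparisons were chosen with earlier results of these data known. Regions were named by rule: the 5 highest scores, the 3 widest, the next 3 by score per base and the 3 RNAPII domains with the most DRIP-only peaks. Gene names, gene lists and sequences are not used here, because the gene tables at hand are of another build than the peaks. The alternatives tried are described in the closing section.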

Additional observations from a re-analysis of the deposited data

How the results depend on the processing

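No paired analysis was possible because each target had 1 list. Of the planned and added alternatives, leaving out the X chromosome or the 16 regions of extra-high signal in at least 3 lists moved no result beyond its interval. Keeping only the near DRIP-only peaks in the upper 50% of the DRIP list by score left 939 with a median score of 95. Neighbours and overlaps were still taken from the full DRIP list. The share with another DRIP peak within 3 kb rose to 74.87%, with DRIP on the nearest RNAPII peak to 40.15% and with RNAPII on both sides to 17.89%. Joining touching peaks lowered the first of these shares to 60.36% and that with DRIP on the nearest RNAPII peak to 32.04%. A limit of 5000 bp gave 68.09% with another DRIP peak within 3 kb and 10.18% with RNAPII on both sides, which the shorter limit itself lowers.

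The far-side share of 65.36% fell to 40.48% at domains of 5000 bp or more, and to 58.14% (43.3 to 71.6%) with NELF-A in the outer 10%. It rose to 72.02% when peaks within 500 bp of RNAPII or NELF were left out too, to 74.57% at lone domains and to 74.36% at lone domains with touching peaks joined. The last of these was chosen after the data were seen, as was counting DRIP peaks on NELF. The odds ratio for NELF-A turned from 0.7189 to 1.314 with each peak counted at its nearest RNAPII peak and was 0.8215 (0.655 to 1.03) among RNAPII peaks with no other within 10 kb; at equal width class and distance class it was 0.8145 (0.709 to 0.936). These 3 were also chosen after. The causes of these changes were not tested. Scores near the floor of the list limit what shorter R-loop signal could be seen.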

Other observations

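The near DRIP-only peaks were unevenly spread over the chromosomes. They made up 29.7% (26.3 to 33.3%) of the DRIP peaks of chromosome 7 and 26.3% (22.7 to 30.1%) of those of chromosome 15, against 13.4% (10.3 to 17.3%) on chromosome 12 and 15.9% (11.2 to 22.1%) on the X chromosome. Set against the RNAPII list, chromosome 15 had 44.1 of them per 100 RNAPII peaks, chromosome 7 had 37.2 and chromosome 16 had 17.2. Chromosome 11 had the most DRIP peaks, 1197, and the most near DRIP-only peaks, 220, or 30.1 per 100 RNAPII peaks. Its share of 18.4% (16.3 to 20.7%) has an interval that includes the 20.3% of the whole list.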
